A study of Homo sapiens with 12 samples.

Results

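Among the 42673 H3K4me1 regions called in KBM-7 cells, 13650 (32.0%) formed a class of distal primed regions. KBM-7 is an established human cell line that came from a chronic myeloid leukaemia and carries most chromosomes once. It was grown without a stated treatment, so 1 condition underlies every value. Chromatin immunoprecipitation followed by sequencing was done with 1 library for each of 9 histone marks, and 3 further libraries were inputs. A primed region was a joined H3K4me1 interval that lay farther than 2 kb from either end of any annotated gene, overlapped H3K4me2, and overlapped none of H3K27ac, H3K9ac, H3K4me3, H3K79me2 and H3K27me3. Members were thus chosen by the called positions of these 7 marks. The overlap with H3K4me2, the lack of the other 5 marks and the distance from gene ends are therefore descriptions of the choice and not findings. Depth is unknown for every library, since the files hold positions without counts or scores, and a region is either called or not called. With 1 library per mark no difference could be set against replicate error, no test between classes was possible, and the Wilson 95% intervals given with shares cover counting error only. They treat regions as independent, although neighbouring regions share a locus and a library.

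H3K4me1 is the monomethyl mark that MLL3 and MLL4 enzymes place at enhancers, and H3K4me2 is found at enhancers as well as around promoters. Acetylation of H3K27 and H3K9 accompanies regulatory sequence in use, H3K4me3 marks promoters, H3K79me2 and H3K36me3 follow transcribed gene bodies, and H3K27me3 marks Polycomb-repressed chromatin. Distal sequence with H3K4me1 but without H3K27ac is commonly called primed or poised, and in blood cells such sequence can become acetylated later in differentiation or after a stimulus. The name rests on marks alone: no expression, accessibility or factor binding was measured. The line carried the mark pattern of a blood cell at the genes checked. H3K4me3 lay within 1 kb of an end of SPI1, LYL1, CD34, PTPRC, MYB and SPN, that is 6 of 7 blood genes, and LMO2 had it within the gene body (11.6% covered). Of 4 genes of other lineages only the keratin gene KRT8 had H3K4me3 at an end, and EPCAM, COL1A1 and ALB had H3K27me3 there.

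The sequence just upstream of 3 genes with many primed regions nearby is shown to set the gene starts beside the distal regions described below. These genes were picked with their values in view. Each run holds the 250 bases before the annotated start in RefSeq (GRCh38.p14), 5′ to 3′ along the gene, with every CG dinucleotide in capitals. IKZF1 encodes the zinc finger factor Ikaros, CD180 encodes a Toll-like surface protein of B cells and myeloid cells, and CYBB encodes the catalytic subunit of the phagocyte oxidase.
IKZF1, plus strand, chr7:50304466-50304715: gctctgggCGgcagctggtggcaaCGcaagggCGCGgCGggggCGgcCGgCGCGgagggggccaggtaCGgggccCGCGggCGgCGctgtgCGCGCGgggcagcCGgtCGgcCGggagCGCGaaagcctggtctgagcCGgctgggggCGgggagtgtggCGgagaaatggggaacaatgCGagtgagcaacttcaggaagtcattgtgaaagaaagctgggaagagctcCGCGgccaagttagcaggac
CD180, minus strand, chr5:67196800-67197049: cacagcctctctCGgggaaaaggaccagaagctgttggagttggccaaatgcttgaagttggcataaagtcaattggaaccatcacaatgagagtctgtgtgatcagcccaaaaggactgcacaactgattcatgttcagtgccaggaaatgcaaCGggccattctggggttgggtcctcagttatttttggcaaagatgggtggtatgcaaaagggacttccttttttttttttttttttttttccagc
CYBB, plus strand, chrX:37779809-37780058: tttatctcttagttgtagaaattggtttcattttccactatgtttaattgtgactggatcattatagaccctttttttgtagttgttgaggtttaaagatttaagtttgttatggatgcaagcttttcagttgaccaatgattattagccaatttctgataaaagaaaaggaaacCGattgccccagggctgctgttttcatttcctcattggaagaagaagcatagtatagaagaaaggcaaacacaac
The IKZF1 run holds 28 CpG, the CD180 run 2 and the CYBB run 1. Around the IKZF1 start, H3K4me3 covered all 300 bases of the window that also takes in 50 bases after the start. The window at CD180 had no H3K4me3 and lay wholly under H3K4me1 and H3K4me2 (300 bases each). The window at CYBB had H3K4me2 alone, over 58 bases. Sequences of the primed regions themselves were not used here.

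Primed regions were the largest of the distal H3K4me1 classes compared here. Of all H3K4me1 regions, 29148 (68.3%) were distal, and 20849 of these overlapped H3K4me2; the 13650 primed regions made up 46.8% of the distal ones and 65.5% of those with H3K4me2. H3K79me2 removed the most distal regions with H3K4me2, 4174, of which 3006 for that mark alone. H3K9ac removed 2271 (970 alone), H3K27me3 1352 (1341 alone), H3K27ac 979 (284 alone) and H3K4me3 480 (3 alone). H3K27ac had by far the fewest calls of these marks, with 3368 joined regions, against 19505 for H3K9ac and 14803 for H3K4me3. An uncalled H3K27ac region is not shown to be without the mark at this unknown depth, and the size of the primed class depends on the number of calls in each excluded mark. At the distance limit, the nearest members lay 2002, 2003 and 2004 bp from a gene end and were 1050, 1350 and 2250 bp wide. The nearest regions left out for distance lay at 2000, 2000 and 1999 bp and were 750, 1200 and 450 bp wide. The 663 primed regions at 2001 to 2500 bp had a median width of 900 bp, against 750 bp for the 771 regions at 1501 to 2000 bp that met every other criterion.

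Primed regions were wider than distal H3K4me1 regions at large, and their widths lay between those of 2 other distal classes that serve as comparisons. These are 988 distal H3K4me1 regions with H3K27ac and 6426 distal H3K4me1 regions with neither H3K4me2 nor any of the 5 excluded marks. The median width was 900 bp for primed regions (quartiles 600 and 1350 bp), 1500 bp for regions with H3K27ac (1050 and 2700 bp) and 600 bp for regions without other marks (450 and 750 bp). The median was 600 bp for all distal H3K4me1 regions that were not primed. The classes are told apart by overlap with other marks, and a wider region has more room for an overlap. Part of this order may thus be fixed by the choice of members, which was not tested. The widest primed region measured 8100 bp, the widest with H3K27ac 12150 bp and the widest without other marks 3300 bp. In all, primed regions covered 14.7 Mb, regions with H3K27ac 2.04 Mb and regions without other marks 4.13 Mb. Widths come in steps of 150 bp, the grid of the calls, and 1468 primed regions were joined from several deposited intervals.

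**Figure D1:**
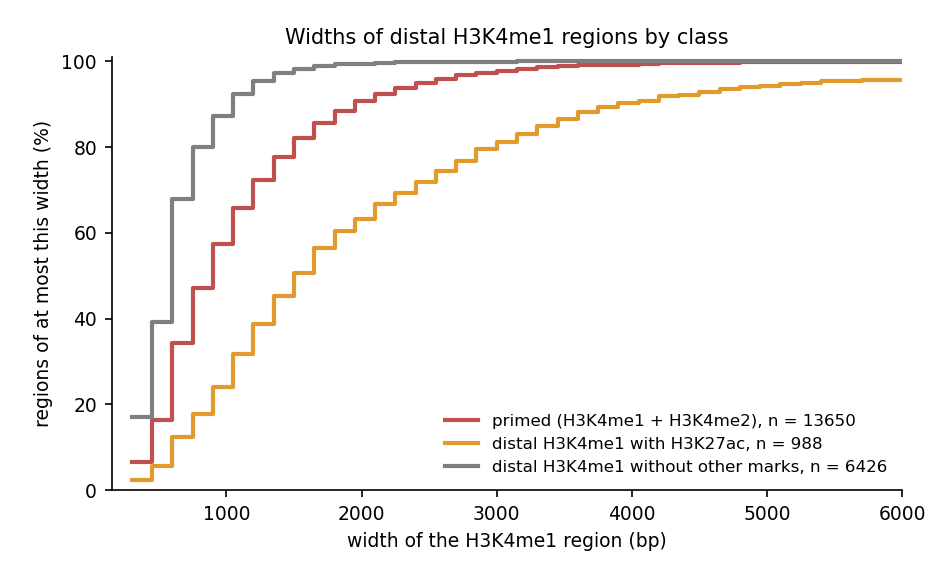
Cumulative share of regions (%) up to each width (bp) for primed regions, distal H3K4me1 regions with H3K27ac and distal H3K4me1 regions without other marks. The primed curve, with its median at 900 bp, runs between the medians of 1500 bp and 600 bp of the other classes.

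H3K4me2 covered most of the width of the typical primed region. The median member had 81.8% of its width under H3K4me2 (quartiles 65.0% and 100%), 5002 members (36.6%) lay wholly under it, and 1278 (9.36%) had less than 50% covered. H3K4me2 touched 96.3% of members as exactly 1 region. Among these 13151 members the H3K4me1 region lay within the H3K4me2 region in 38.0%, the H3K4me2 region lay within the H3K4me1 region in 24.3%, and the regions were staggered in 37.6%. Where H3K4me2 lay inside, H3K4me1 reached beyond it on both sides in 1559 of 3201 cases (48.7%) and shared an end with it in the rest. The widest H3K4me2 region touching a member had a median width of 1200 bp at primed regions, against 3450 bp at the 979 regions with H3K27ac that touched H3K4me2. That H3K4me2 region held a further H3K4me1 region in 32.4% of primed cases and in 78.1% of cases with H3K27ac. In 1513 primed regions (11.1%) the touching H3K4me2 region also overlapped a called region of an excluded mark outside the member. Wider members were covered less fully: the median cover was 100% for the 2242 members of 300 to 450 bp and 76.7% for the 1279 members of 2100 bp or more.

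The excluded marks lay at very different distances from primed regions, beyond the overlap the rule forbids. The nearest H3K9ac region was at a median of 23.4 kb (quartiles 7.50 and 60.5 kb), the nearest H3K4me3 region at 42.3 kb and the nearest H3K79me2 region at 42.3 kb. H3K27me3 was at 70.7 kb and H3K27ac, the sparsest set, at 191 kb (quartiles 49.8 and 665 kb). Regions without other marks, which the same exclusions chose, had nearly the same distances: 24.3 kb to H3K9ac, 42.3 kb to H3K4me3 and 180 kb to H3K27ac. Close by, the classes differed. A mark just beyond the edge was uncommon at primed regions but more frequent than at regions without other marks for acetylation and H3K4me3. H3K9ac lay within 1 kb of 7.30% of primed regions (996), H3K79me2 of 6.51% (889), H3K27ac of 2.78% (379), H3K27me3 of 2.27% (310) and H3K4me3 of 1.58% (215). At regions without other marks the shares were 1.88% for H3K9ac, 5.04% for H3K79me2, 0.482% for H3K27ac, 2.07% for H3K27me3 and 0.171% for H3K4me3. Regions without other marks may not touch H3K4me2. At 11.1% of primed regions the touching H3K4me2 region reached an excluded mark. Part of this contrast may thus be fixed by the choice of members, which was not tested. Within 50 kb, 70.3% of primed regions had an H3K9ac region and 25.1% had an H3K27ac region. Regions with H3K27ac lay nearer to H3K4me3 (median 23.5 kb) and H3K79me2 (8.85 kb) than primed regions did, a direction that the rule largely fixes, since primed regions may overlap neither mark. The distance to the nearest gene end was alike, with medians of 11.5 kb for primed regions, 10.4 kb for regions with H3K27ac and 12.1 kb for regions without other marks.

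More than 1 in 2 primed regions lay inside a protein-coding gene, but few lay under the gene-body marks that the rule had left free. A protein-coding gene span was overlapped by 7890 primed regions, or 57.8% (95% interval 57.0 to 58.6%), against 57.2% (54.1 to 60.2%) of regions with H3K27ac and 61.4% (60.2 to 62.5%) of regions without other marks. The 7890 regions lay in 3405 different genes. The intervals labelled H3K36me3 and those labelled H4K16ac are identical in the deposited file, so which mark they show cannot be told, and they are used once under both names. They were overlapped by 5.61% of primed regions (766; 5.24 to 6.01%), 10.6% of regions with H3K27ac (8.86 to 12.7%) and 10.2% of regions without other marks (9.46 to 10.9%). Within protein-coding genes the share was 9.30% for primed regions, 17.3% for those with H3K27ac and 15.7% for those without other marks. Host genes differed too: at least 25% of the host's span was under H3K36me3/H4K16ac for 31.8% of intragenic primed regions, 53.3% of those with H3K27ac and 36.9% of those without other marks. In such hosts alone, with a median of 47.2% to 48.7% of the span covered in each class, 26.0% of primed regions overlapped the mark (24.3 to 27.8%), against 30.2% (25.3 to 35.6%) of regions with H3K27ac and 38.95% (36.5 to 41.5%) of regions without other marks. The primed share and the share with H3K27ac overlap within counting error there, while the share without other marks was above the primed share. The rule bars H3K79me2, which follows transcribed gene bodies, from primed regions and from regions without other marks. Regions with H3K27ac were not so limited, and 35.9% of them had H3K79me2 within 1 kb. Part of the contrasts between primed regions and regions with H3K27ac may thus be fixed by the choice of members, which was not tested.

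Within long genes primed regions lay slightly toward the start. In host genes of at least 20 kb with a known strand, the median position was 45.3% of the gene length from the start (6251 regions), and 55.5% of regions (54.3 to 56.8%) lay nearer to the start than to the end. The share was 52.4% for regions with H3K27ac (47.7 to 57.1%) and 52.4% for those without other marks (50.7 to 54.2%). In hosts with H3K4me3 at an end, 58.1% of primed regions lay nearer to the start (56.7 to 59.6%), and in hosts without it 49.6% did (47.4 to 51.9%). The rule removes regions with H3K79me2, a mark of the early gene body, from the start of transcribed genes.

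Many primed regions lay near one another along the chromosome. The gap used here is the one commonly used to stitch enhancers into clusters, given with the processing. Within it, 8094 of 13650 members (59.3%, 58.5 to 60.1%) had another primed region. Some other H3K4me1 region lay within it for 80.2% of primed regions, 79.4% of all distal H3K4me1 regions and 78.8% of those not primed. The share was 97.2% for regions with H3K27ac and 73.7% for regions without other marks. Lying near another H3K4me1 region was thus not particular to primed regions. The share with a neighbour of the same class was not computed for the other classes. Joining primed regions across such gaps gave 5556 single regions and 3050 runs of at least 2. Runs of 5 or more numbered 211 and held 1217 regions (8.92%). Of the 10 runs with the most members, those at a protein-coding gene span were at HDAC4, BHLHE40, PIK3AP1, PREX1, CD180, MAML3, GNG7 and IKZF1. The others lay outside any protein-coding gene span, 33.3 kb from NEK6 and 21.5 kb from RNF24. The runs at IKZF1 and near RNF24 had 8 regions each, as 11 runs did, and were taken from these by covered bp.

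HDAC4, which encodes a class IIa histone deacetylase, held the run with the most regions. It comprised 13 primed regions (9900 bp in all) over 47.4 kb at chr2:239221801-239269200. The run held 8 H3K4me2 regions, and some members were parted by a single grid step of 150 bp. Its count of members thus depends on how the calls were split. None of the 5 excluded marks nor H3K36me3/H4K16ac was called anywhere in the run. PREX1, a Rac exchange factor of phagocytes, had a run of 10 regions (12150 bp over 51.5 kb, chr20:48738151-48789600) likewise free of those marks. PIK3AP1, an adaptor of phosphoinositide 3-kinase in B cells and myeloid cells, had 11 regions over 71.7 kb (chr10:96646051-96717750; 16800 bp) with 5500 bp of H3K36me3/H4K16ac between them. The run at BHLHE40, a basic helix-loop-helix repressor, was of another kind. Its 11 primed regions (19050 bp, chr3:4976101-5039400) were interspersed with 3 H3K27ac, 6 H3K9ac and 3 H3K4me3 regions over 63.3 kb. Of the 10 runs, 2 held H3K27ac, at BHLHE40 and MAML3, and 5 held H3K9ac.

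Ikaros and 2 myeloid receptor loci show how the members were laid out. IKZF1 (chr7:50303455-50405101) had 16 primed regions, 25050 bp in all, in its span plus 50 kb on either side. Of these, 6 lay 17.4 to 40.0 kb upstream of the gene start (centres; widths 750 to 2700 bp), 9 lay in the span between 8.72 and 54.0 kb, and 1 lay 113 kb downstream of the start. The run of 8 within the gene, chr7:50329651-50358150, included the 2 widest of the 16, of 3600 and 3150 bp. H3K4me3, H3K9ac and H3K79me2 were called within the gene near its start, and no H3K27ac region was called in the whole window. CSF1R (chr5:150053295-150113365), the receptor of macrophage colony-stimulating factor, had 10 primed regions (13800 bp), 7 of them in the span at 6.42 to 54.4 kb from its start. No H3K4me3 was called in its window, and a single H3K27ac region lay within the gene. Outside the span, the window also held 2 H3K9ac regions and 1 H3K79me2 region. CD180 had 9 primed regions of 450 to 2700 bp. They lay 3.13 to 25.7 kb upstream and 3.10 and 9.17 kb downstream of its start. Neither H3K4me3, H3K27ac, H3K79me2 nor H3K27me3 was called in its window, but 1 H3K9ac region lay within the gene.

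**Figure D2:**
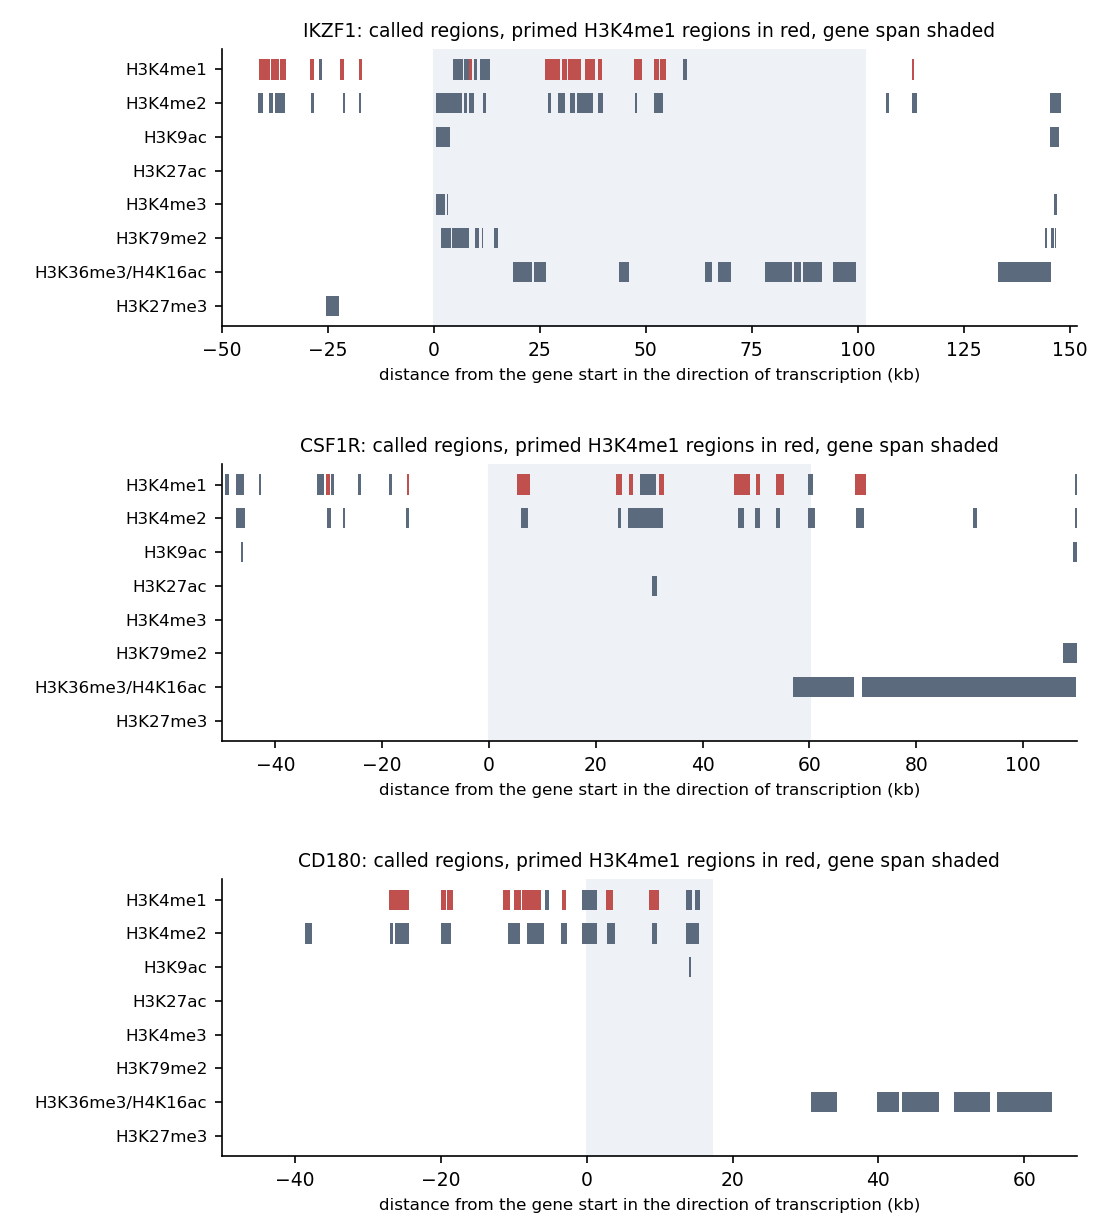
Called regions of each mark (rows) by distance from the gene start in kb, for IKZF1, CSF1R and CD180 with 50 kb on either side; primed H3K4me1 regions are red, other calls grey, and the gene span is shaded. The 16 primed regions of IKZF1, 10 of CSF1R and 9 of CD180 lie upstream, within and, for IKZF1 and CSF1R, downstream of the genes, and H3K4me3 was called at IKZF1 alone of the 3 loci.

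The widest members were in or near genes of several functions. The widest, of 8100 bp with 6600 bp under H3K4me2, lay in PXN, the gene of the focal adhesion protein paxillin, at chr12:120228451-120236550. DUSP22, a phosphatase gene, held one of 7950 bp (chr6:334651-342600; 7650 bp under H3K4me2). A member of 6900 bp lay 26.5 kb from BHLHE40 (chr3:5011801-5018700), with the nearest H3K27ac region 0.3 kb from its edge. At chr2:230663551-230670300 a member of 6750 bp lay 19.8 kb from LOC124907996. The other 6 of the 10 widest were on chromosome 8 (at SLA and TG, in LZTS1, and in the non-coding CCDC26) or in a stretch of chromosome 15 (in TBC1D2B, 17.8 kb from ABHD2, and 4.34 kb from SEMA7A). The member farthest from any gene end, 408 kb, was an intronic region of AUTS2 (chr7:70006051-70007100; 1050 bp, 42.9% under H3K4me2). The next 4 lay 319 to 399 kb from any gene end, with CSMD3 or PABPC4L as nearest protein-coding gene, on chromosomes 8 and 4.

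Chromosome 8 and the 61 to 90 Mb stretch of chromosome 15 stood apart in the width of primed regions. The mean width was 1951 bp on chromosome 8 (534 regions) and 2097 bp in the chromosome 15 stretch (209), against 1077 bp on the rest of chromosome 15 (254) and 1025 bp on all sequence outside the 2 stretches (12907, the rest of chromosome 15 included). Members of at least 2 kb made up 36.5% on chromosome 8 and 40.2% in the chromosome 15 stretch, against 8.66% on the rest of chromosome 15 and 7.75% outside both stretches. The other classes differed the same way: regions with H3K27ac averaged 3958 bp on chromosome 8 and 5688 bp in the chromosome 15 stretch, against 1871 bp outside both stretches. Regions without other marks averaged 1192 bp on chromosome 8 and 1245 bp in the chromosome 15 stretch, against 606 bp outside both stretches. Primed regions were at the same time a smaller share of distal H3K4me1 regions there, with 39.1% on chromosome 8 and 37.3% in the chromosome 15 stretch, against 45.04% on the rest of chromosome 15 and 47.4% outside both stretches. KBM-7 is known to keep an additional copy of both stretches; copy number was not measured here and its part in these widths was not tested. Without both stretches 12907 primed regions were left, and their median width was still 900 bp. The density of primed regions on chromosome 8, 3.68 per Mb, lay within the autosomal range of 2.81 on chromosome 13 to 8.68 on chromosome 17, and chromosome X had 3.04.

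**Figure D3:**
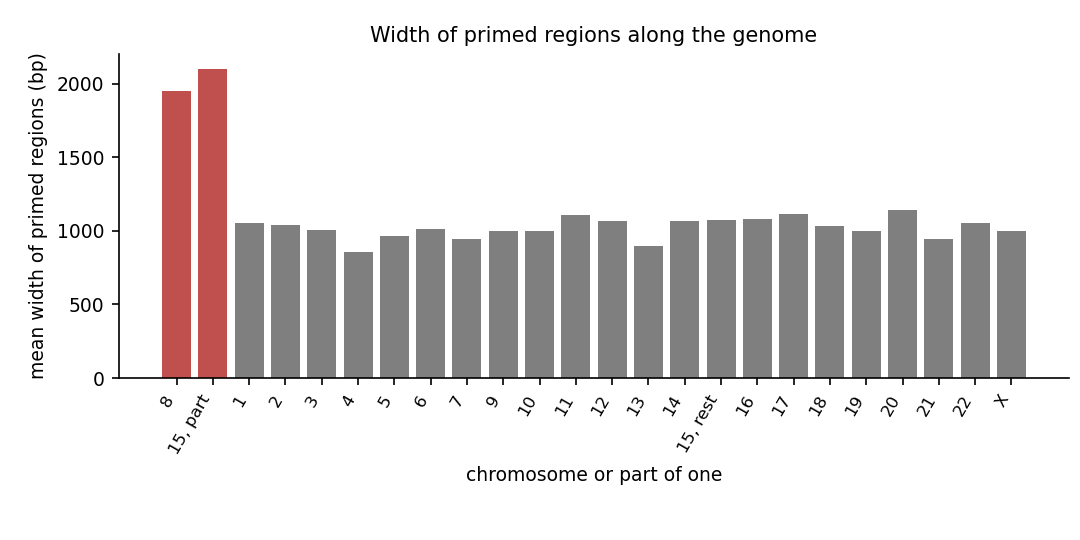
Mean width (bp) of primed regions per chromosome, with the 61 to 90 Mb part of chromosome 15 shown apart from its rest; red bars are chromosome 8 and that part. The red bars stand at 1951 and 2097 bp, and the bar of the rest of chromosome 15 at 1077 bp.

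The protein-coding genes nearest to primed regions more often had the marks of a promoter in use than genes at large. H3K4me3 lay within 1 kb of an end of the nearest gene for 67.5% of primed regions (66.7 to 68.2%), against 51.3% of all 19974 protein-coding genes. H3K4me2 was there for 85.1%, against 67.7% of all genes, H3K79me2 for 45.2%, against 35.9%, H3K27ac for 9.88%, against 6.42%, and H3K27me3 for 18.6%, against 32.5%. The rule excludes H3K27me3, so part of the last difference is fixed by the choice of members, and part of the others may be too. Counted by gene, the 5271 different nearest genes (26.4% of all) had H3K4me3 in 64.7% and H3K27me3 in 20.5%. The other classes were close for H3K4me3, at 69.0% for regions with H3K27ac (66.1 to 71.8%) and 69.3% for regions without other marks (68.2 to 70.5%). They were not for acetylation: the nearest gene had H3K27ac at an end for 9.88% of primed regions (9.39 to 10.4%) and 10.6% of regions without other marks (9.90 to 11.4%), against 24.5% of regions with H3K27ac (21.9 to 27.3%). H3K79me2 was there for 60.7% of regions with H3K27ac (57.6 to 63.7%). Still, 19.5% of primed regions had a nearest gene with neither H3K4me3 nor H3K27me3 at an end, against 21.2% of all genes, and 13.01% one with H3K27me3 alone, against 27.4%.

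Seen from the genes, 46.1% of protein-coding genes had at least 1 primed region centred in their span plus 50 kb on either side. The share was 58.9% for genes with H3K4me3 alone at their ends, 46.7% for genes with neither mark, 40.6% for genes with both and 25.2% for genes with H3K27me3 alone. Per 100 kb of this neighbourhood there were 0.991 primed regions at genes with H3K4me3 alone, 0.861 with neither, 0.476 with both and 0.278 with H3K27me3 alone. The last had a median of 65.1% of the neighbourhood under H3K27me3, where the rule allows no member. H3K4me3 at an end was found in 40.9% of the 10764 genes with 0 primed regions, 60.7% of the 3714 with 1, 62.7% of the 2268 with 2, 66.0% of the 2014 with 3 or 4, 69.0% of the 918 with 5 to 7, and 70.6% of the 296 with 8 or more. The step between 0 and 1 region was thus larger than the later ones together. H3K27ac at an end was in 4.13% of genes with 0 primed regions, 10.8% with 3 or 4, and 9.46% with 8 or more. Genes with more primed regions were longer, with median lengths of 19.3 kb at 0 and 178 kb at 8 or more. Within each of 4 equal classes of gene length, H3K4me3 was more frequent in genes with 3 or more primed regions than in genes with 0. The shares were 55.3% against 27.5% in the shortest class and 72.6% against 39.9% in the longest. Of genes with 0 primed regions, 43.7% had H3K27me3 at an end, a mark that no member may overlap. Part of the differences in H3K4me3, also within length classes, is thus fixed by the choice of members. How large a part was not tested.

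**Figure D4:**
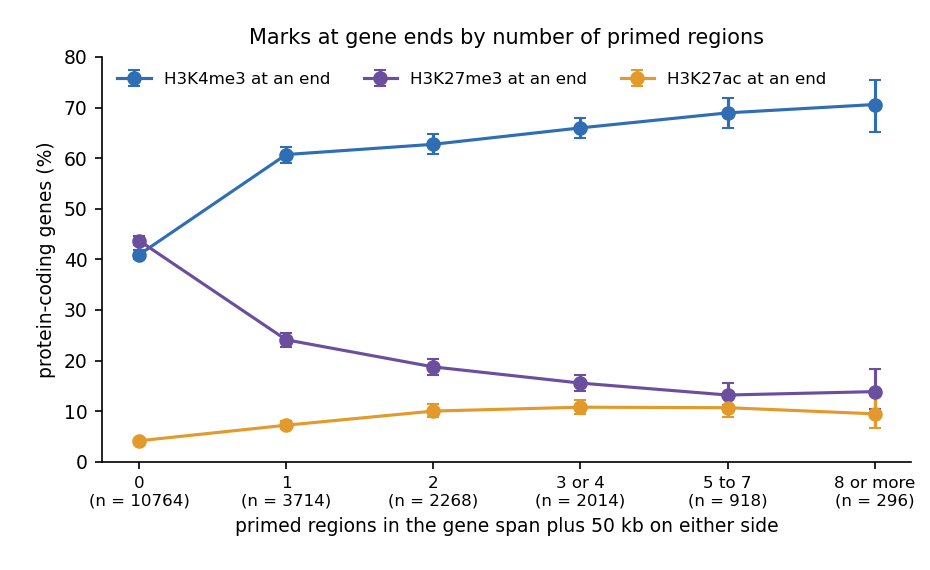
Share of protein-coding genes (%) with H3K4me3, H3K27me3 or H3K27ac within 1 kb of an end, by number of primed regions in the span plus 50 kb; bars are Wilson 95% intervals. H3K4me3 is at 40.9% at 0 regions and 70.6% at 8 or more, and H3K27me3 is at 43.7% at 0 regions, 13.2% at 5 to 7 and 13.9% at 8 or more.

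Promoters of genes with primed regions were described on the 15812 protein-coding genes with a RefSeq start and strand. Those with 3 or more primed regions (2607) had a median of 20 CpG in the 250 bases upstream, against 15 for those with 0 (8437), and H3K4me3 overlapped the 300-base window in 55.1% against 34.9%. Among genes without H3K4me3 in that window, as at CD180 and CYBB above, the CpG counts were nearer, with medians of 10 for the 1171 genes with 3 or more primed regions and 8 for the 5496 with 0. H3K4me1 lay on the window itself in 14.6% of the 1171 genes against 2.04% of the 5496, and H3K4me2 in 59.0% against 29.9%. H3K27me3 was there in 18.0% against 51.1%, a difference that the rule fixes in part, since primed regions may not overlap this mark. How far this shapes the H3K4me1 and H3K4me2 shares was not tested. Of 3 short motifs searched on both strands in the 250 upstream bases, GAGGAA, the core of the ETS factor PU.1, occurred in 23.2% of promoters of genes with 3 or more primed regions, 23.6% with 0 and 23.5% of all. GATAA, which GATA factors bind, occurred in 13.5%, against 18.9% with 0 and 16.6% of all. TGTGGT, which RUNX factors bind, occurred in 8.40%, against 9.85% with 0 and 9.12% of all. Among genes without H3K4me3 at the promoter, GATAA occurred in 19.98% with 3 or more primed regions, against 23.1% with 0.

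Among 11 lists of 28 genes each, the 3 lists of blood regulators had primed regions at the most genes. Of the haematopoietic transcription factor genes, 25 of 28 had a primed region in the span plus 50 kb (89.3%, against 46.1% of all protein-coding genes), with a median of 2.5 regions and 1.67 per 100 kb, against 0.707 per 100 kb over all genes. With 20 kb on either side the count was 20 of 28, against 31.6% of all genes, and with 100 kb it was 27 of 28, against 60.4%. The cytokine receptor and JAK-STAT list and the list of surface and signalling genes of blood progenitors each had 23 of 28 genes with a primed region and a median of 3. The cytokine pathway list had 2.13 and the surface and signalling list 2.01 regions per 100 kb, both above the density of the transcription factor list. At least 3 primed regions were found at 14 transcription factor genes, 16 cytokine pathway genes and 17 surface and signalling genes, against 16.2% of all genes. Distal H3K4me1 regions with H3K27ac were also frequent in these 3 lists, at 11 of 28 transcription factor genes, 9 cytokine pathway genes and 13 surface and signalling genes, against 6.16% of all genes. The excess was not limited to primed regions: distal H3K4me1 regions without other marks were at 19 transcription factor genes, 21 cytokine pathway genes and 23 surface and signalling genes, against 6399 of all 19974 genes. Any distal H3K4me1 region was at 27, 26 and 26 genes of these lists, against 63.7% of all genes. The genes of the 3 lists were longer, with medians of 42.9, 37.5 and 46.2 kb, against 24.2 kb over all genes. They also had less of their neighbourhood under H3K27me3, with medians of 6.10, 2.64 and 4.73%, against 15.5%. The part of length and of H3K27me3 in these counts was not tested. H3K4me3 was at an end of 19 transcription factor genes, 18 cytokine pathway genes and 19 surface and signalling genes, against 51.3% of all genes.

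Lists of mature blood cells were nearer to the background in the number of genes. Primed regions were at 17 of 28 lymphocyte genes, 13 erythroid and megakaryocytic genes and 12 granulocyte and monocyte genes, against 46.1% of all genes. Neighbouring genes with overlapping windows, such as CD3D, CD3E and CD3G with 2 regions each, were counted apart. The granulocyte and monocyte list nevertheless had 1.33 regions per 100 kb, against 0.707 over all genes. Of its 28 genes, 6 had 3 or more, against 16.2% of all genes. This was not particular to that list: ribosomal protein genes had 1.28 regions per 100 kb, and 8 of them had 3 or more. H3K4me3 lay at an end of 2 granulocyte and monocyte genes, 2 erythroid and megakaryocytic genes and 3 lymphocyte genes, against 51.3% of all genes. H3K27ac-bearing distal regions were at 2 granulocyte and monocyte genes, 1 erythroid and megakaryocytic gene and 0 lymphocyte genes, against 6.16% of all genes. In the number of genes, ribosomal protein genes (14 of 28) and cell cycle genes (12 of 28) were near the background too. H3K4me3 was nevertheless at an end of 28 ribosomal protein genes and 27 cell cycle genes. Fewer genes had primed regions in the lists of other tissues, with 9 liver, 8 neuronal and 3 developmental transcription factor genes. The developmental factors had a median of 81.4% of their neighbourhood under H3K27me3, and liver and neuronal genes 69.3% and 37.7%, which the rule bars to members.

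**Figure D5:**
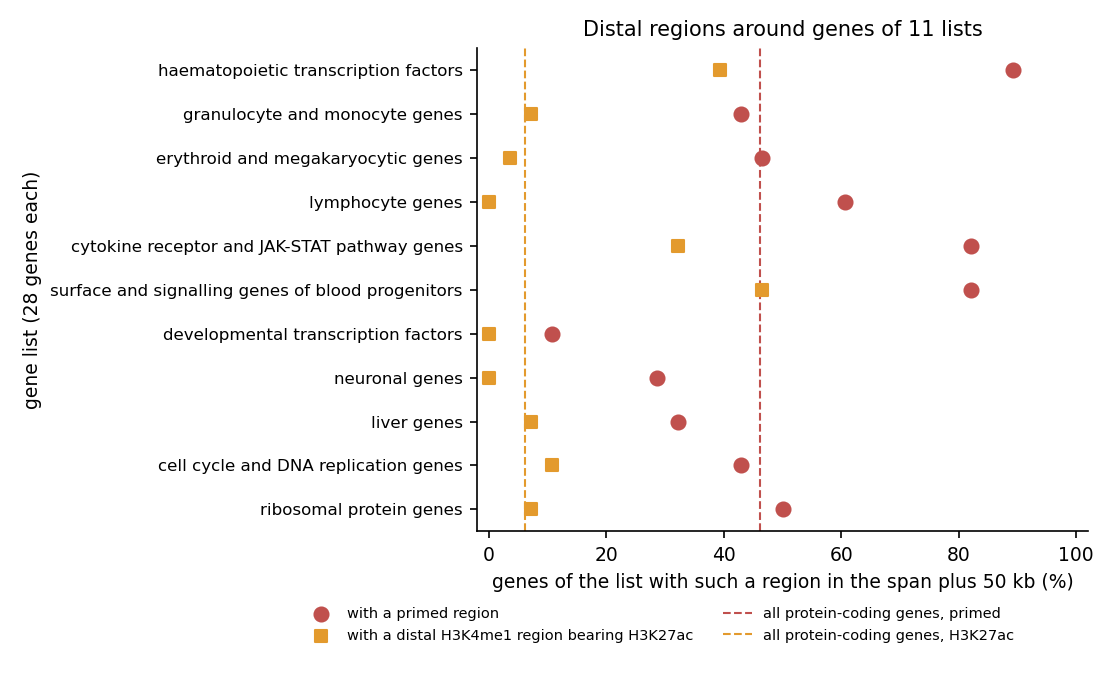
Share of the 28 genes of each list (%) with a primed region (red circles) or a distal H3K4me1 region bearing H3K27ac (orange squares) in the gene span plus 50 kb; dashed lines are the shares of all protein-coding genes, 46.1% and 6.16%. Haematopoietic transcription factors stand highest for primed regions at 89.3% and developmental transcription factors lowest at 10.7%.

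Among the transcription factor genes, IKZF1 had the most primed regions, 16, and MYB, the progenitor factor, came next with 8 (9450 bp), all outside its span (chr6:135181308-135219172), beside 2 distal regions with H3K27ac. CEBPA, the factor of granulocyte commitment (chr19:33299934-33302534), had 7 (6900 bp), of which 6 lay 22.1 to 43.03 kb downstream of its start and 1 lay 29.6 kb upstream. RUNX3, a runt factor of lymphoid and myeloid cells (chr1:24899511-24965138), had 6 (12000 bp) and had neither H3K4me3 nor H3K27me3 at its ends. The 3 genes of the list without a primed region differed among themselves. NFE2, a factor of megakaryocytes and red cells, had H3K79me2 over 95.3% of its body and 1 distal region with H3K27ac, while GATA2, a stem and progenitor factor, had 97.8% under H3K79me2 and 5 distal H3K4me1 regions of other classes. MECOM, which encodes EVI1, had 0 distal H3K4me1 regions, and 75.3% of its body lay under H3K27me3.

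In the signalling lists the leading genes were of both kinds, with and without H3K4me3. CSF2RA, the alpha chain of the GM-CSF receptor, had 11 primed regions (11850 bp), 6 of them in the span, with H3K27ac but not H3K4me3 at an end; it lies in sequence that chromosomes X and Y share. IL10RA, an interleukin-10 receptor chain, had 8 (12750 bp) and neither H3K4me3 nor H3K27me3 at its ends. PIM1, a serine/threonine kinase gene induced by STAT5, had 7 (13350 bp) beside 2 regions with H3K27ac, and the kinase gene JAK1 had 7 (6750 bp), both with H3K4me3 at an end. PLCG2, a phospholipase of antigen receptor signalling, had 9 (10650 bp) and CD34, the progenitor surface glycoprotein, 7 (12600 bp), each beside 3 regions with H3K27ac. The 7 at CD34 all lay outside its span, 5 downstream of the gene at 37.5 to 78.1 kb from its start and 2 upstream at 30.7 and 42.1 kb. The kinase gene SYK had 6 (8400 bp), 5 of them in the span.

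The leading genes of the granulocyte and monocyte list had several primed regions each, while the median over its 28 genes was 0. CSF1R, with 10, and CYBB, with 8 (11850 bp, chrX:37780059-37813461), had neither H3K4me3 nor H3K27me3 at their ends. ITGAM, the integrin chain CD11b, had 7 (7050 bp), 1 of them in the span, although 63.1% of its body lay under H3K27me3. TLR2, a Toll-like receptor gene, had 6 (6150 bp) with H3K4me3 at an end, and 34.1% of its body was under H3K27me3. Leading genes of the erythroid and megakaryocytic list had fewer: EPB42 and VWF 4 each, TFRC and GP9 3 each. PRF1, the gene of perforin, led the lymphocyte list with 8 (7350 bp), before RAG1 with 5 and PAX5 and CD2 with 3 each.

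Primed regions were found around some genes of other tissues and around housekeeping genes as well. Among the developmental factors, TBX1 had 3 regions and LHX3 had 2. SYN1 had 3, GRIN1 and GRIA1 2 each and SLC17A7 1 among the neuronal genes, and CYP7A1 (on chromosome 8), HPX and CYP2E1 had 2 each among the liver genes. MCM5, a subunit of the replicative helicase, had 10 (12150 bp), 3 in its span, while PCNA had 5, AURKA 4 and TOP2A 2. RPL23 and RPL13 had 6 each and RPS3 and RPS23 4 each, all of them outside the gene spans.

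Counted within spans alone, long genes led, where 17.4% of all protein-coding genes held a primed region. MAML3, a Notch coactivator gene of 437 kb, held 23, followed by PREX1 with 20, and by HIVEP3, PRKCE and PDE4D with 19 each. ARHGEF3, ARHGAP26 and GSE1 held 17 each, CACNA1C 16 and ZDHHC14 15. Of these 10 genes, 4 had H3K4me3 alone at their ends, 2 had both H3K4me3 and H3K27me3, 2 had H3K27me3 alone, and PREX1 and PDE4D had neither. These states are read at the outer ends of the annotated span. At PREX1 the RefSeq start used for promoters lies inside the span, and its 300-base window had H3K4me3 over 51 bases and H3K9ac over 300 bases. PREX1, with 20 regions in 264 kb, had the densest set of the 10, and PDE4D, at 1553 kb, the sparsest. CACNA1C, a calcium channel gene, held its 16 members although 39.9% of its body lay under H3K27me3.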

How the data were processed

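ChIP-seq of KBM-7 cells comprised 1 library for each of 9 marks and 3 inputs. Chromatin was crosslinked and sheared, per the labels' protocols. The deposited file lists interval positions by mark and holds neither counts nor scores. Tools named in the submitters' processing notes are cutadapt, Bowtie2 and MACS, with the build GRCh38. For versions, thresholds and the input behind a call, the sources used here state nothing.

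Starts counted from 0 or from 1 were made alike using the grid of the calls, and overlapping or adjacent intervals of a mark were joined (overlap of at least 1 bp). H3K36me3 and H4K16ac share all 45695 intervals. Intervals of 2 labels without a sample were left out, and chromosomes 1 to 22 and X were kept. Genes came from RefSeq (GRCh38.p14): 59098 of every biotype for the 2 kb rule and 19974 protein-coding ones for neighbourhoods, of which 15812 had a promoter sequence and strand. The region centre decided whether it lay in a gene's span plus 50 kb, and a region could count for several genes. Runs joined primed regions at most 12.5 kb apart. Shares have Wilson 95% intervals. Overlap functions were tested on simulated intervals. Python 3.11.15 with numpy 2.4.6, pandas 2.3.3 and scipy 1.17.1 was used.

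The members, the gene lists and the stretch of chromosome 15 were chosen with earlier results of these data known. Genes were named by rule: per list the 4 with the most primed regions, and those going against the majority where they numbered 4 or fewer; the 10 with the most in their span; the 10 widest regions; the 10 runs with the most regions; and the 5 regions farthest from gene ends. Some genes that the rule names are not reported here. The genes whose sequence or map is shown were singled out after values were seen. Motifs in the regions were planned, but no genome sequence was used here. Alternatives covered region width, H3K4me2 cover, distances, windows, left-out chromosomes and, added after the data were seen, H3K4me1 intervals as deposited.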

Additional observations from a re-analysis of the deposited data

How the results depend on the processing

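Of 53 alternative values for 7 results, 36 stayed close to the reported value and 17 moved. The share of primed regions whose nearest gene had H3K4me3 at an end stayed between 67 and 68.15% under every alternative run. The number of primed regions moved to 8964 when H3K4me1 regions at or above the median width alone were used, and otherwise ranged between 10563 and 15851. The median width was 1200 bp under that setting and 750 bp with intervals as deposited. The share with another primed region within the linking gap was 50.3% with wider regions, 55.43% with at least 50% of the width under H3K4me2, 56.81% with the excluded marks absent within 1 kb, 57.93% beyond 5 kb of gene ends, 60.34% with chromosome 8 and the 61 to 90 Mb stretch of chromosome 15 left out, 62.36% with the ends of protein-coding genes alone and 66.16% with intervals as deposited. The share inside protein-coding genes was 54.9% with protein-coding ends alone, 55.58% with the excluded marks absent within 1 kb and 60.56% beyond 5 kb. The share under H3K36me3/H4K16ac was 6.76% with wider regions, 5.217% with protein-coding ends alone and 4.943% without the stretches of chromosomes 8 and 15. Of 28 haematopoietic transcription factor genes, 11 had a primed region in the gene span alone and 20 to 27 under the other alternatives. The cause of each shift was not tested.

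The calls have no score, so a stricter peak threshold could not be tried and width took its place. No paired analysis was possible because each mark has 1 library and no result comes from a test between samples. Without replicates, counts or signal, a missing call cannot be told from a call missed at low depth, which touches each mark the rule excludes.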
